A study of Homo sapiens with 12 samples.

Results

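The insulin-like growth factor (IGF) binding proteins are a family of secreted proteins encoded by IGFBP1 to IGFBP7. Their 7 rows were taken by gene name from the deposited table of 58735 genes, over all 12 libraries. IGFBP1 to IGFBP6 bind IGF1 and IGF2 tightly, carry them outside the cell and set how much of each can reach the type 1 IGF receptor. IGFBP7 binds IGFs weakly and is known as a secreted matrix-associated protein. The complexes are opened by proteases such as PAPPA, which cleaves IGFBP4 and IGFBP5, and several members are known among the factors that senescent cells secrete.

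RNA was sequenced from Beas-2b cells, a line of human bronchial epithelial cells, in 4 groups of 3 biological replicates. The groups were ANT1 knockout cells in bleomycin, ANT1 knockout cells in control medium, wildtype cells in bleomycin and wildtype cells in control medium. ANT1, encoded by SLC25A4, is the ADP/ATP carrier of the mitochondrial inner membrane. The knockout was made as CRISPR clones, their number being not given in the sources used here, and genotype and clone cannot be told apart. Bleomycin breaks DNA and was given, per the labels, at 10 mg/ml over 2 days to induce senescence.

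The deposited counts summed to 15.8 to 21.9 megacounts per library, and 3 counts, the level that a count of 0 allows, stood for 0.136 to 0.190 CPM (counts per megacount, scaled by TMM factors). SLC25A4 was at 4.09 to 6.96 CPM in the 6 knockout libraries, against 16.1 to 27.5 CPM in the 6 wildtype libraries. Its log2 fold change, knockout over wildtype, was -2.26 (SE 0.22) in bleomycin and -1.78 (SE 0.21) in control medium, with adjusted p = 0.000904 and adjusted p = 0.0111 (edgeR). Leaving out wildtype control replicate 1 (adjusted p = 0.0515) or 3 (adjusted p = 0.0622) ended the second call. The values were -2.26 (SE 0.19) in bleomycin and -1.96 (SE 0.22) in control medium without knockout control replicate 2. The 7 epithelial markers examined summed to 1395 to 1754 CPM per library, with the basal keratin KRT5 at 3 counts or fewer in every control library. The 5 leukocyte markers summed to 4.50 to 6.52 CPM in bleomycin libraries and to at most 0.186 CPM in control libraries, with CD3E at 3 counts or fewer throughout, and their part in the bleomycin differences was not tested. The 4 endothelial markers summed to 2.13 to 4.04 CPM. In bulk RNA, fewer cells of a type and less RNA per cell cannot be told apart.

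Knockout control replicate 2 differed from the other 11 libraries and held high levels of IGFBP7, IGFBP4, IGFBP3 and IGFBP2. Mitochondrial chromosome transcripts made up 0.364% of its counts, against 3.86% to 5.13% in the others. The 6 fibroblast markers examined summed to 3523 CPM in it and to 487 to 1249 CPM in the other libraries. COL1A1 was the 1 marker of these 6 whose level was higher there than in every other library (3470 CPM, with a highest value of 1198 CPM elsewhere), while DCN and LUM had 3 counts or fewer in all 12. CDKN1A, the gene of the p53-induced cell cycle inhibitor p21, was at 136 CPM in this library. The other knockout controls had 135 and 154 CPM of CDKN1A, while knockout bleomycin libraries had 3954 to 4341 CPM. The part of these differences in the values below was not tested, and bleomycin and genotype results are given with and without the library.

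Over the whole family, bleomycin libraries held more binding protein transcript than control libraries, apart from knockout control replicate 2. The deposited FPKM values (fragments per kilobase of gene length per megacount), which can be compared between genes, summed over the 7 genes to 764 ± 4.92 in knockout bleomycin and 528 ± 296 in knockout control, and to 700.4 ± 71.8 in wildtype bleomycin and 321 ± 18.9 in wildtype control (SD, n = 3 each). Knockout control replicate 2 alone summed to 870.1, the highest of all 12, and the other knockout controls to 347 and 368. IGFBP7 and IGFBP4 were the most abundant members by mean FPKM in every group. In the bleomycin groups of both genotypes the order by mean FPKM was IGFBP7, IGFBP4, IGFBP3, IGFBP6, IGFBP2, IGFBP5 and IGFBP1, and no neighbours in it overlapped. In wildtype control the order was IGFBP4, IGFBP7, IGFBP6, IGFBP3, IGFBP2, IGFBP5 and IGFBP1, again with no overlap between neighbours. In knockout control IGFBP7 overlapped IGFBP4, and IGFBP6 overlapped IGFBP3.

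In bleomycin the make-up of the family shifted toward IGFBP7, although the knockout groups overlapped through control replicate 2. IGFBP7 held 44.8 ± 2.67% of the summed FPKM in knockout bleomycin and 36.3 ± 9.68% in knockout control, and 46.5 ± 1.57% in wildtype bleomycin and 28.1 ± 2.74% in wildtype control (SD, n = 3 each). Knockout control replicate 2 had an IGFBP7 share of 47.5%, above the knockout bleomycin libraries (41.9% to 47.2%). Without replicate 2, the knockout control shares of IGFBP7 were 30.3% and 31.2%. IGFBP6 held 7.27 ± 1.01% in knockout bleomycin and 16.6 ± 5.94% in knockout control, and 7.90 ± 0.10% in wildtype bleomycin and 22.1 ± 1.85% in wildtype control. IGFBP4 had a share of 31.0% to 41% in every library. These shares are descriptions and were not tested.

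**Figure D1:**
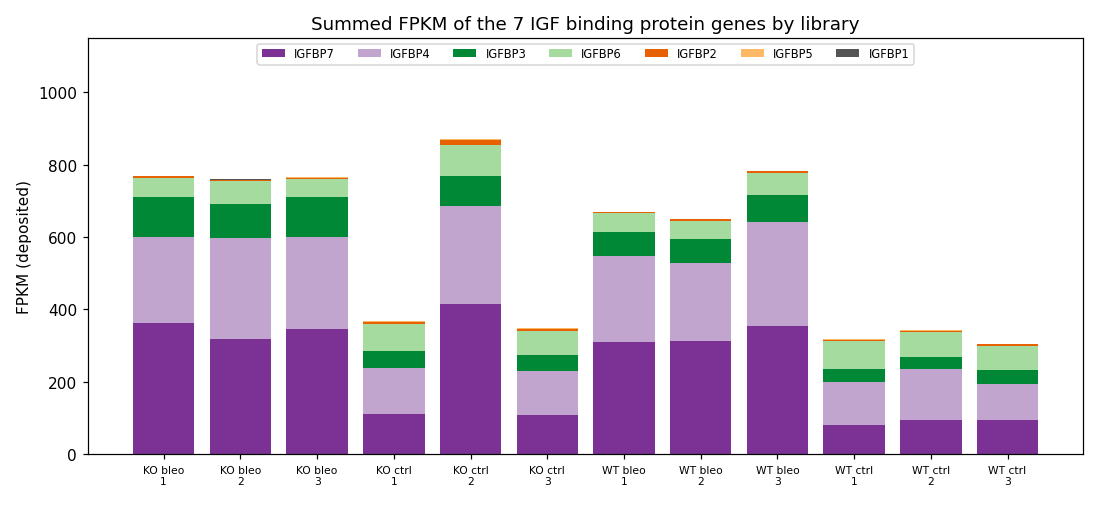
Deposited FPKM of the 7 IGF binding protein genes, stacked, in each of the 12 libraries. Bleomycin libraries reached 649 to 782 in sum, wildtype controls 305 to 342, and knockout control replicate 2 reached 870.1 where the other knockout controls were at 347 and 368.

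The first comparison asks how bleomycin changed these transcripts in each genotype. In wildtype cells IGFBP3, IGFBP4 and IGFBP7 rose, while IGFBP5 and IGFBP6 fell. In knockout cells IGFBP3 rose and IGFBP2, IGFBP5 and IGFBP6 fell. Without knockout control replicate 2, IGFBP3, IGFBP4 and IGFBP7 rose and IGFBP2, IGFBP5 and IGFBP6 fell in both genotypes. Of the 7 members, 6 passed the filter on low counts and could be tested, IGFBP1 being the exception. In knockout cells 4 of the 6 were called, 1 higher and 3 lower, where 43.2% of all 16702 genes tested were called (22.5% higher and 20.7% lower). In wildtype cells 5 of the 6 were called, 3 higher and 2 lower, where 43.5% of all genes were called (23.9% higher and 19.6% lower). Without that library all 6 tested members were called in each genotype, 3 higher and 3 lower. There, 48.4% of 17204 genes were called in knockout (25.6% higher and 22.8% lower) and 56.6% in wildtype cells (29.8% higher and 26.8% lower). The median log2 fold change of the tested members was 0.06 in knockout and 0.31 in wildtype cells, and that of all genes 0.00 and 0.02. Leaving out knockout control replicate 2 gave the members a median of 0.35 in knockout and 0.31 in wildtype cells, and all genes 0.03 in both. With so many genes changed, a called member is not unusual among the genes of these cells.

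**Figure D2:**
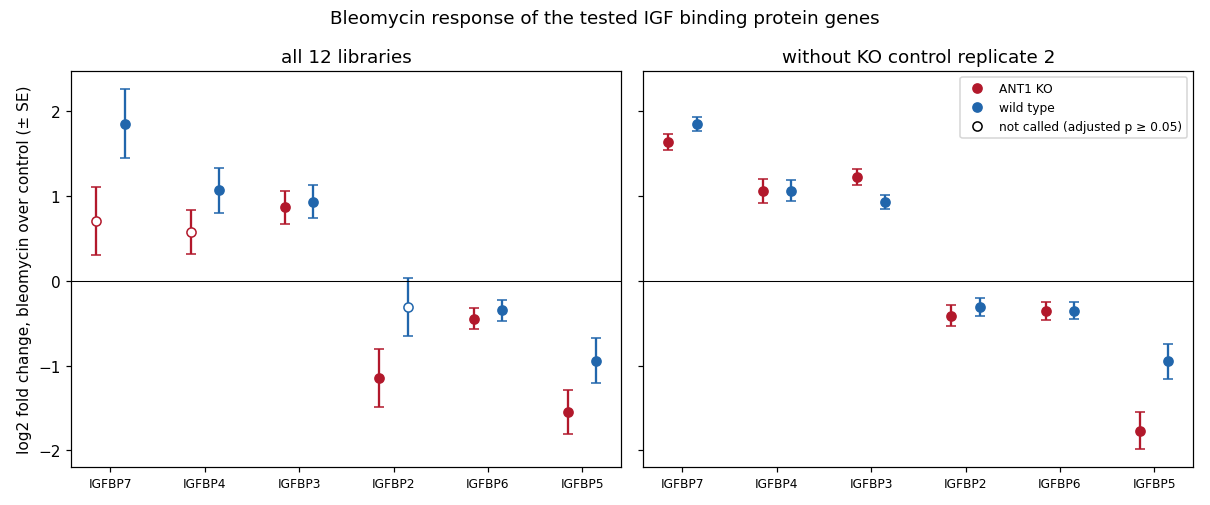
Log2 fold change of bleomycin over control with its SE for the 6 tested members, knockout left of wildtype, with all 12 libraries (left panel) and without knockout control replicate 2 (right panel). Filled points passed edgeR's test: 4 knockout and 5 wildtype points in the left panel, and all 12 in the right panel.

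IGFBP7 (ENSG00000163453, chromosome 4, 57030773 to 57110385, minus strand) had the largest increase of the 6 tested members in wildtype cells, and in both genotypes without knockout control replicate 2, the library with its highest level. With all libraries IGFBP3 had the largest increase in knockout cells. IGFBP7 was at 712, 618 and 672 CPM in knockout bleomycin and 216, 799.7 and 210.1 CPM in knockout control. Its levels were 600.3, 611 and 685 CPM in wildtype bleomycin and 157, 183 and 183 CPM in wildtype control. In wildtype cells every bleomycin library lay above every control library. In knockout cells the groups overlapped, because control replicate 2 was higher than all 6 bleomycin libraries and 3.76 times as high as the other knockout controls on average. In wildtype cells IGFBP7 rose 3.62-fold (log2 fold change 1.86, SE 0.41, adjusted p = 0.00294, edgeR). With all 12 libraries the knockout value was 0.71 (SE 0.40, adjusted p = 0.172), which did not pass. Without control replicate 2 IGFBP7 rose 3.13-fold in knockout cells (1.65, SE 0.09, adjusted p = 6.14e-12) and 3.61-fold in wildtype cells (1.85, SE 0.08, adjusted p = 4.6e-14).

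The IGFBP7 gene overlaps POLR2B by 396 bases on the opposite strand, and strand use in counting was not given in the sources used here. POLR2B, a subunit of RNA polymerase II, had 1943 to 4203 counts per library, and the antisense gene IGFBP7-AS1, which overlaps IGFBP7 by 624 bases, had 0 to 5. Reads from the shared stretches cannot be told apart without strand.

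IGFBP4 (ENSG00000141753, chromosome 17, 40443461 to 40457731, plus strand), an inhibitor of IGF action, showed the same pattern at a smaller size. Its levels were 532, 615 and 558 CPM in knockout bleomycin, 279.7, 599.9 and 265 CPM in knockout control, 533, 478 and 635 CPM in wildtype bleomycin and 258, 310.3 and 218 CPM in wildtype control. Wildtype bleomycin and control libraries did not overlap, while knockout control replicate 2 lay within the range of the bleomycin libraries and above the other controls. IGFBP4 rose 2.10-fold in wildtype cells (1.07, SE 0.26, adjusted p = 0.00544, edgeR) and did not pass in knockout cells (0.58, SE 0.26, adjusted p = 0.0929). Without control replicate 2 it rose 2.08-fold in knockout cells (1.06, SE 0.14, adjusted p = 2.38e-05) and 2.09-fold in wildtype cells (1.06, SE 0.12, adjusted p = 4.14e-06).

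IGFBP3 (ENSG00000146674, chromosome 7, 45912245 to 45921874, minus strand), the main carrier of IGFs in serum and a known p53 target, rose in both genotypes under both sets of libraries. It was at 509, 437 and 516 CPM in knockout bleomycin, 208, 385 and 208 CPM in knockout control, 298, 302 and 344 CPM in wildtype bleomycin and 172, 151 and 172 CPM in wildtype control. Bleomycin and control libraries did not overlap in either genotype, although knockout control replicate 2 was 1.85 times as high as the other knockout controls on average. IGFBP3 rose 1.83-fold in knockout cells (0.87, SE 0.20, adjusted p = 0.00322, edgeR) and 1.91-fold in wildtype cells (0.93, SE 0.20, adjusted p = 0.00187). Without that library the rise was 2.34-fold in knockout cells (1.23, SE 0.09, adjusted p = 6.07e-10) and 1.91-fold in wildtype cells (0.93, SE 0.08, adjusted p = 3.15e-09).

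IGFBP5 (ENSG00000115461, chromosome 2, 216672105 to 216695525, minus strand), which binds to extracellular matrix and is cleaved by PAPPA and HTRA1, moved the other way. Its levels were 5.96, 6.0 and 4.67 CPM in knockout bleomycin, 19.5, 11.1 and 18.1 CPM in knockout control, 5.46, 4.58 and 4.59 CPM in wildtype bleomycin and 6.10, 12.6 and 9.40 CPM in wildtype control. Every bleomycin library lay below every control library of its genotype, and knockout control replicate 2 was the lowest of its group. IGFBP5 fell 2.93-fold in knockout cells (-1.55, SE 0.26, adjusted p = 0.000378, edgeR) and 1.92-fold in wildtype cells (-0.94, SE 0.26, adjusted p = 0.0108). The wildtype call was lost without wildtype control replicate 2 (-0.67, adjusted p = 0.0637). Without knockout control replicate 2 the fall was 3.40-fold in knockout cells (-1.77, SE 0.21) and 1.93-fold in wildtype cells (-0.95, SE 0.21). An antisense gene that overlaps IGFBP5 by 1062 bases had 0 or 1 count per library.

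Stretches just upstream of a RefSeq start of IGFBP3 and IGFBP4, which rose in wildtype cells, and of IGFBP5, which fell, are shown to let these starts be compared. Each runs from base -250 to base -11 relative to the RefSeq start (GRCh38.p14, read on the strand of the gene, minus for IGFBP3 and IGFBP5 and plus for IGFBP4), and none of the 3 windows overlaps an exon of GENCODE release 29. Capitals mark letters that match the pattern TATANA, the core of a TATA box, on either strand. The windows are chr7:45921283-45921522 for IGFBP3, chr17:40443200-40443439 for IGFBP4 and chr2:216695560-216695799 for IGFBP5. The IGFBP3 window lies inside the longer gene span given above, whose start at 45921874 is farther upstream.
IGFBP3: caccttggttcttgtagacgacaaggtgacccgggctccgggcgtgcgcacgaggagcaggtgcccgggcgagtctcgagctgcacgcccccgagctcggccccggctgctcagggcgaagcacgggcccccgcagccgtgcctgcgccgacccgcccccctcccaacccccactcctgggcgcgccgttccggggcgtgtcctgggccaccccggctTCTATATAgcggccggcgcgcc
IGFBP4: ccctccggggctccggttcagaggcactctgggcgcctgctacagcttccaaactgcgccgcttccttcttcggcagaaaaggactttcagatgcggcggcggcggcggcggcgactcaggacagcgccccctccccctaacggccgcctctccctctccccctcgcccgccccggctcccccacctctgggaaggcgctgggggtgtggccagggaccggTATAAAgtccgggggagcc
IGFBP5: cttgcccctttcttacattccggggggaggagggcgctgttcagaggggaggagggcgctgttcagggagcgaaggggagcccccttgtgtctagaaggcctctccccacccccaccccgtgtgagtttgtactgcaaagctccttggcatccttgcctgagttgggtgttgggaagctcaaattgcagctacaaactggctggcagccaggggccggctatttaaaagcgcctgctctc
Matches to TATANA, on either strand and counting overlaps, lay between bases -32 and -25 in IGFBP3 (3 matches, with TATATA counted on each strand). In IGFBP4 1 match lay between bases -29 and -24, and IGFBP5 had none. The IGFBP5 window does hold the stretch tatttaaaa, which this pattern does not match, so the lack of a match concerns this pattern only. The pattern was found in 17.4% of all 35116 RefSeq windows of this length. GGGCGG, a GC box, was found once each in IGFBP3 and IGFBP4 and in 41.4% of all windows. Neither TGANTCA, an AP-1 site pattern (6.43% of all windows), nor the p53 half-site (5.30% of all windows) matched in the 3 windows. GGGCGG was not limited to members that rose: of the windows not shown, 2 of the 3 of IGFBP2 and the 1 of IGFBP6 also held GGGCGG, and the other IGFBP2 window held a p53 half-site. None of these 4 held TATANA. The matches describe letters only, and 5 of the 7 members had at least 1 RefSeq window. IGFBP1 had none, nor did IGFBP7, which had the largest increase of the tested members in wildtype cells. The windows therefore cannot show whether TATANA goes with a rise.

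IGFBP6 (ENSG00000167779, chromosome 12, 53097436 to 53102345, plus strand), which prefers IGF2 over IGF1, fell by a small amount in both genotypes. It was at 73.1, 86.4 and 66.8 CPM in knockout bleomycin, 104, 116 and 89.1 CPM in knockout control, 70.7, 70.3 and 84.2 CPM in wildtype bleomycin and 101, 93.2 and 91.8 CPM in wildtype control. The groups did not overlap in either genotype. The fall was 1.36-fold in knockout cells (-0.45, SE 0.12, adjusted p = 0.00977, edgeR) and 1.27-fold in wildtype cells (-0.35, SE 0.12, adjusted p = 0.0349). In wildtype cells the call was lost when any of 5 wildtype libraries was left out (adjusted p = 0.0548 to 0.119; wildtype bleomycin replicate 3 was the other). In knockout cells it was lost without knockout bleomycin replicate 3 (adjusted p = 0.0552) and in a fit of the knockout libraries alone (adjusted p = 0.0524). Without knockout control replicate 2 IGFBP6 fell 1.28-fold in knockout cells (-0.36, SE 0.11, adjusted p = 0.00886) and 1.27-fold in wildtype cells (-0.35, SE 0.09, adjusted p = 0.00422).

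IGFBP2 (ENSG00000115457, chromosome 2, 216632828 to 216664436, plus strand), an IGF binding protein that is abundant in fetal tissue, had a fall in knockout cells whose size depended on 1 library. Its levels were 17.6, 14.8 and 16.2 CPM in knockout bleomycin, 19.3, 65.0 and 23.5 CPM in knockout control, 14.9, 15.05 and 18.2 CPM in wildtype bleomycin and 20.5, 18.7 and 20.4 CPM in wildtype control. Bleomycin libraries lay below the controls of their genotype without overlap, and knockout control replicate 2 was 3.04 times as high as the other knockout controls on average. IGFBP2 fell 2.21-fold in knockout cells with all libraries (-1.15, SE 0.35, adjusted p = 0.0179, edgeR) and 1.33-fold without control replicate 2 (-0.41, SE 0.12, adjusted p = 0.00811). The knockout call was lost without knockout bleomycin replicate 2 (adjusted p = 0.0593), with no filter on low counts (adjusted p = 0.0991), with limma on log2(FPKM + 1) (adjusted p = 0.0532) and in a fit of the knockout libraries alone (adjusted p = 0.087). In wildtype cells the value with all libraries did not pass (-0.31, SE 0.35, adjusted p = 0.508), and without knockout control replicate 2, which left the estimate as it was and lowered the shared spread, IGFBP2 fell 1.24-fold (-0.31, SE 0.11, adjusted p = 0.0184).

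**Figure D3:**
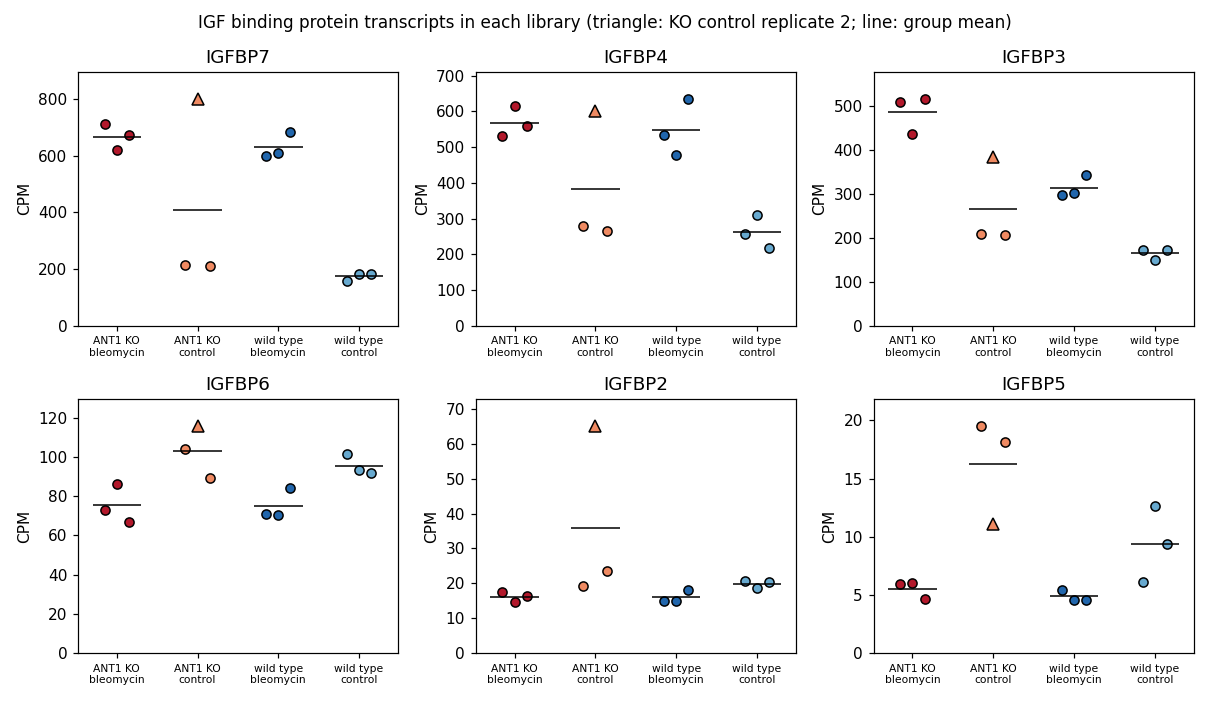
CPM of the 6 tested members in each library, with a line at each group mean and a triangle for knockout control replicate 2, each panel on its own scale from 0. For IGFBP7 the triangle is at 799.7 CPM, above the 6 bleomycin libraries at 600.3 to 712 CPM, and for IGFBP2 it is at 65.0 CPM where all other libraries lie between 14.8 and 23.5 CPM.

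IGFBP1 (ENSG00000146678, chromosome 7, 45888357 to 45893668, plus strand), a binding protein best known from liver and induced there by fasting, was close to the limit of detection. It had 4, 8 and 8 counts in knockout bleomycin, 0, 0 and 1 in knockout control, 2, 13 and 9 in wildtype bleomycin and 0, 1 and 0 in wildtype control. Every bleomycin library had more counts than every control library, and the highest level was 0.744 CPM. The ratio of summed counts, scaled to library size, was 19.2 in knockout cells (20 counts against 1, 95% exact interval 3.07 to 797) and 26.0 in wildtype cells (24 counts against 1, 4.24 to 1069). Such intervals cover counting error only. With no filter on low counts, where it could be tested, IGFBP1 rose in knockout (adjusted p = 0.00425, edgeR) and wildtype cells (adjusted p = 0.000651).

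Among the members are 2 pairs of neighbours in the genome. IGFBP1 and IGFBP3 lie on opposite strands of chromosome 7 with 18576 bases and 0 annotated genes between them, and IGFBP2 and IGFBP5 on opposite strands of chromosome 2 with 7668 bases and 0 genes between them. In knockout control replicate 2, against the mean of the other knockout controls, IGFBP2 was 3.04 times as high and IGFBP5 0.588 times as high. Whether neighbours differed from each other was not tested.

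The second comparison asks whether ANT1 loss altered the same transcripts within each medium. With all 12 libraries 0 of the 6 tested members were called in bleomycin, where 0.0479% of all genes were called, and 0 in control medium, where 0.168% were. At an unadjusted p under 0.05 the counts were 1 of 6 in bleomycin and 4 of 6 in control medium. Over all 16702 genes they were 1103 and 1661. DESeq2 called 0 members in both, with 0.527% and 1.25% of all genes called. Without knockout control replicate 2, 1 member was called in bleomycin (IGFBP3, with 1.71% of all genes called) and 1 in control medium (IGFBP5, with 1.02% of all genes called).

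Levels of IGFBP3 in knockout and wildtype libraries did not overlap in either medium, and the difference passed in bleomycin without knockout control replicate 2. In bleomycin the 3 knockout libraries (437 to 516 CPM) lay above the 3 wildtype libraries (298 to 344 CPM). In control medium the knockout libraries (208 to 385 CPM) also lay above the wildtype libraries (151 to 172 CPM). The log2 fold change in bleomycin was 0.63 (SE 0.20, adjusted p = 0.46, edgeR) with all libraries and 0.63 (SE 0.08, adjusted p = 0.000179) without knockout control replicate 2, a library that belongs to neither group of that comparison and enters through the shared spread. A fit of these 6 libraries alone also called it (0.63, SE 0.08, adjusted p = 0.000274). In control medium the value was 0.69 (SE 0.20, adjusted p = 0.25) with all libraries and 0.34 (SE 0.09, adjusted p = 0.0784) without replicate 2, neither of which passed.

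IGFBP5 in control medium was at 11.1 to 19.5 CPM in knockout and 6.10 to 12.6 CPM in wildtype cells, with overlap through knockout replicate 2. Its value was 0.79 (SE 0.25, adjusted p = 0.332, edgeR) with all libraries and 1.00 (SE 0.20, adjusted p = 0.0242) without that replicate, a 2.00-fold difference. In bleomycin it did not pass (0.18, SE 0.27, adjusted p = 0.999, and 0.18, SE 0.22, adjusted p = 0.788 without that library).

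IGFBP7 in control medium was at 210.1 to 799.7 CPM in knockout and 157 to 183 CPM in wildtype cells, which did not overlap. The value was 1.23 (SE 0.40, adjusted p = 0.373, edgeR) with all libraries and 0.29 (SE 0.09, adjusted p = 0.155) without replicate 2. In bleomycin it was 0.08 (SE 0.40, adjusted p = 0.999) with all libraries and 0.08 (SE 0.08, adjusted p = 0.727) without it. IGFBP2, IGFBP4 and IGFBP6 overlapped between genotypes in both media and did not pass with or without that library. In control medium IGFBP2 had a value of 0.85 (SE 0.34, adjusted p = 0.47, edgeR) with all libraries and 0.11 (SE 0.12, adjusted p = 0.876) without replicate 2. IGFBP4 had 0.54 (SE 0.26, adjusted p = 0.509) and, without it, 0.06 (SE 0.14, adjusted p = 0.963). For IGFBP6 the control medium values were 0.11 (SE 0.12) and, without it, 0.02 (SE 0.11). In bleomycin the values were 0.01 for IGFBP2, 0.05 for IGFBP4 and 0.01 for IGFBP6, both with all libraries (SE 0.35, 0.26 and 0.12) and without that library (SE 0.11, 0.12 and 0.10). IGFBP1 had 20 counts in knockout and 24 in wildtype bleomycin libraries, a ratio of 0.874 (95% exact interval 0.458 to 1.65).

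The third comparison, the interaction, asks whether the bleomycin response differed between genotypes, as the log2 fold change in knockout minus that in wildtype cells. With all libraries 0 of the 6 members and 0 of 16702 genes were called by edgeR. At an unadjusted p under 0.05 there were 0 members and 770 of all genes. DESeq2 called 0 members and 0.0239% of all genes. For IGFBP7 the difference was -1.15 (SE 0.56, adjusted p = 0.899) with all libraries and -0.21 (SE 0.12, adjusted p = 0.724) without knockout control replicate 2. For IGFBP5 the difference was -0.61 (SE 0.37, adjusted p = 0.899) and -0.82 (SE 0.30, adjusted p = 0.522) without it. For IGFBP3 it was -0.06 (SE 0.28, adjusted p = 0.975) and 0.29 (SE 0.12, adjusted p = 0.574), opposite in sign. The difference was -0.84 (SE 0.49; -0.10, SE 0.16, without that library) for IGFBP2, -0.49 (SE 0.37; -0.01, SE 0.18, without that library) for IGFBP4 and -0.10 (SE 0.17; -0.01, SE 0.14, without that library) for IGFBP6. Without that library 0 members and 0.0523% of all genes were called. At an unadjusted p under 0.05 there were then 2 members, and 1333 of 17204 genes.

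Of 26 further genes of the IGF system, 16 could be tested, and the protease PAPPA changed most. In knockout cells 8 rose and 1 fell, and in wildtype cells 9 rose and 2 fell, where 43.2% and 43.5% of all genes were called in either direction. Their median log2 fold change was 0.24 in knockout and 0.38 in wildtype cells, and that of all genes 0.00 and 0.02. Without knockout control replicate 2, where 18 genes of the list could be tested, the median was 0.45 in knockout and 0.43 in wildtype cells. That of all genes was then 0.03 in both. The added genes, PAPPA2 and HTRA4, passed the low-count filter through their bleomycin libraries, so this median cannot be compared with that of the 16. Between genotypes 0 of 16 were called in either medium, and 0 in the interaction. At an unadjusted p under 0.05 there were 0 in bleomycin, 3 in control medium and 2 in the interaction. Over all 16702 genes these counts were 1103, 1661 and 770. DESeq2 called 0 of the list in each, and 0.527%, 1.25% and 0.0239% of all genes.

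Among ligands, IGF1 and INS had 0 counts in all 12 libraries, and IGF2 had at most 0.155 CPM in any library. The type 1 IGF receptor gene IGF1R, by contrast, was expressed at 195 to 211 CPM in knockout bleomycin and 106 to 143 CPM in knockout control, and at 207 to 238 CPM in wildtype bleomycin and 105 to 141 CPM in wildtype control. IGF1R rose 1.69-fold in knockout (0.76, SE 0.13, adjusted p = 0.000417, edgeR) and 1.79-fold in wildtype cells (0.84, SE 0.13, adjusted p = 0.000152). IGF2R, which takes IGF2 up for degradation, rose 1.32-fold in knockout and 1.34-fold in wildtype cells. INSR, the insulin receptor, fell 1.39-fold in knockout and 1.51-fold in wildtype cells. Of the signalling adaptors, SHC1 rose 1.38-fold in knockout and 1.26-fold in wildtype cells. GRB10, which restrains the receptors, rose 1.32-fold in knockout and 1.37-fold in wildtype cells. IRS2, a docking protein of both receptors, fell 1.54-fold in wildtype cells (adjusted p = 0.0218) and had a value of -0.31 in knockout cells (adjusted p = 0.229), or 0.02 without knockout control replicate 2. Without that library the knockout folds were 1.85 for IGF1R, 1.35 for IGF2R, 1.38 for GRB10 and 1.29 for SHC1, with INSR 1.27-fold lower, and each of these 5 was called in both genotypes. Leaving out 1 library ended the wildtype call of SHC1 (wildtype control replicate 2 or 3, adjusted p = 0.055 and 0.0553) and of IRS2 (wildtype bleomycin replicate 3, wildtype control replicate 2 or 3, adjusted p = 0.0681 to 0.0736). It ended the knockout call of INSR without knockout bleomycin replicate 2 (adjusted p = 0.0533), as did a fit of the knockout libraries alone (adjusted p = 0.0586).

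PAPPA was at 167, 155 and 164 CPM in knockout bleomycin, 11.2, 6.65 and 10.9 CPM in knockout control, 207, 192 and 165 CPM in wildtype bleomycin and 5.85, 8.66 and 7.02 CPM in wildtype control. All bleomycin libraries were far above all controls, and knockout control replicate 2 was the lowest of its group. PAPPA rose 16.9-fold in knockout (4.08, SE 0.19, adjusted p = 3.63e-09, edgeR) and 26.2-fold in wildtype cells (4.71, SE 0.20, adjusted p = 8.58e-10). STC2, a secreted inhibitor of PAPPA, rose 1.98-fold in knockout (adjusted p = 9.22e-07, edgeR) and 2.07-fold in wildtype cells (adjusted p = 3.8e-07). LRP1, an endocytic receptor that binds IGFBP3, rose 2.07-fold in knockout (adjusted p = 0.00736) and 1.82-fold in wildtype cells (adjusted p = 0.0201). Without knockout control replicate 2 the rise in knockout cells was 14.6-fold for PAPPA, 1.93-fold for STC2 and 2.40-fold for LRP1, and in wildtype cells 26.0-fold, 2.07-fold and 1.82-fold, each called. The wildtype call of LRP1 was lost without wildtype bleomycin replicate 1 or 2 or wildtype control replicate 1 (adjusted p = 0.055 to 0.0632), in a fit of the wildtype libraries alone (adjusted p = 0.0694) and with no filter on low counts (adjusted p = 0.114). With no filter its knockout call was lost too (adjusted p = 0.0535).

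Of the related proteins, ESM1, a secreted proteoglycan with an IGF binding protein domain, rose 3.40-fold in knockout (1.76, SE 0.24, adjusted p = 6.79e-05, edgeR) and 5.92-fold in wildtype cells (2.57, SE 0.25, adjusted p = 2.24e-06). The rise of ESM1 was 4.11-fold in knockout and 5.91-fold in wildtype cells without knockout control replicate 2. KAZALD1, another protein with that domain, rose 2.82-fold in wildtype cells (adjusted p = 0.0318) and had a value of 0.08 in knockout cells (adjusted p = 0.916), or 0.98 without control replicate 2 (adjusted p = 0.109). Its wildtype call was lost without wildtype bleomycin replicate 1 or 2 or wildtype control replicate 1 or 2 (adjusted p = 0.0571 to 0.14). Without knockout control replicate 2, 18 of the 26 genes could be tested, with 10 higher and 2 lower in knockout and 11 higher and 3 lower in wildtype cells. Of all genes, 48.4% were then called in knockout (25.6% higher and 22.8% lower) and 56.6% in wildtype cells (29.8% higher and 26.8% lower). STC1, another PAPPA inhibitor, was among those lower, at -0.31 (SE 0.09, adjusted p = 0.00875, edgeR) in knockout and -0.46 (SE 0.08, adjusted p = 9.47e-05) in wildtype cells. These counts include the proteases PAPPA2 and HTRA4, which had at most 17 and 13 counts in a library and passed the low-count filter through their bleomycin libraries, so their calls support nothing. PAPPA was then also called between genotypes in control medium (0.62, adjusted p = 0.0437).

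**Figure D4:**
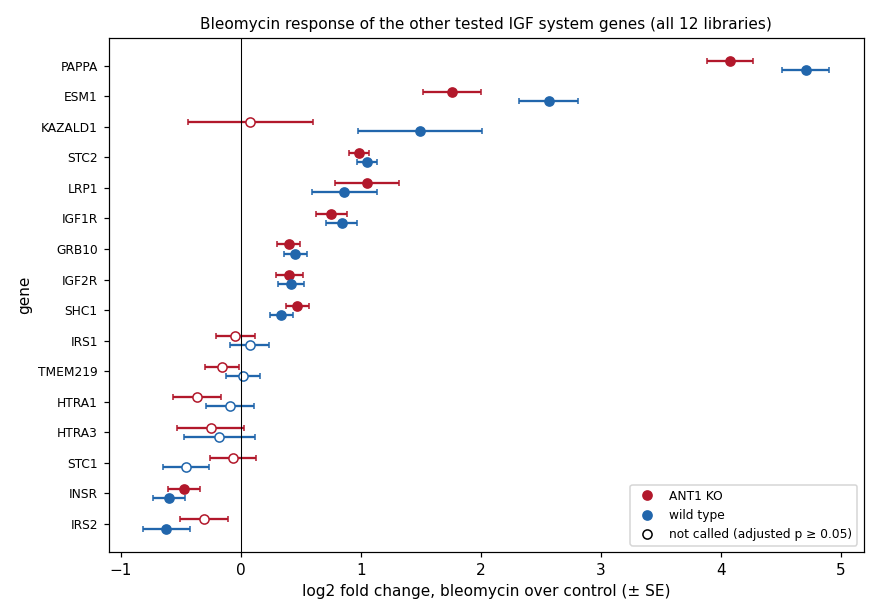
Log2 fold change of bleomycin over control with its SE for the 16 tested IGF system genes, knockout above wildtype for each gene, from all 12 libraries. Filled points passed edgeR's test, and PAPPA lies farthest to the right, at 4.08 in knockout and 4.71 in wildtype cells.

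Patterns like those of the members were sought among 11612 protein-coding genes, by the root mean square difference in log2 CPM over the 12 libraries after centring each gene. For IGFBP7 the nearest were HES6 (0.17), COL9A3 (0.26) and ARVCF (0.26), and for IGFBP4 TMEM243 (0.08), G0S2 (0.17) and CST3 (0.17). For IGFBP3 they were CST3 (0.16), VSTM2L (0.18) and GXYLT1 (0.18), and for IGFBP5 OXTR (0.18), GLP2R (0.20) and KIT (0.22). For IGFBP2 they were NBL1 (0.13), BRAT1 (0.13) and FAM20C (0.13), and for IGFBP6 MESD (0.08), DNAJA1 (0.08) and ENSA (0.08). The members' own SD in log2 CPM over the 12 libraries was 0.95 for IGFBP7, 0.76 for IGFBP5, 0.63 for IGFBP3, 0.58 for IGFBP4, 0.57 for IGFBP2 and 0.25 for IGFBP6. All genes share the same libraries, including knockout control replicate 2, and a gene that varies little, such as IGFBP6, has many near neighbours.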

How the data were processed

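The submitters' processing notes name HISAT2 2.0.5, an aligner, and featureCounts 1.5.0-p3, a read counter. The authors deposited raw counts per gene, and FPKM values that equal the count divided by gene length and a factor per library (within 0.1%, for all values with at least 20 counts). No genome build was given in the sources used here. All 7 members have the same coordinates in GENCODE release 29 on GRCh38.

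Counts were tested with edgeR 4.0.16 in R 4.3.3, by the quasi-likelihood test with filterByExpr (16702 genes kept), TMM factors, robust glmQLFit and 1 fit of 4 group means over all 12 libraries. A total of 5 contrasts were tested, with Benjamini-Hochberg adjustment over all genes and a threshold of 0.05. "Called" means past that threshold. The SE of a log2 fold change is its size over the root of F. Alternatives included DESeq2 1.42.0, limma 3.58.1 on log2(FPKM + 1), other filters and scalings, a replicate block, and leaving out each library.

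Where IGF2 belongs to 2 identifiers, the one with more counts was used.

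The members and gene lists were chosen with earlier results of these data known. The text names all 7 members, each IGF system gene that passed, and for each member whose mean log2 CPM reached 1 the 3 protein-coding genes with the nearest pattern. COL1A1 and CDKN1A were named after their values were seen. Sequences are from RefSeq.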

Additional observations from a re-analysis of the deposited data

How the results depend on the processing

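The number of members called in bleomycin against control was 4 in knockout and 5 in wildtype cells with all libraries. When 1 library was left out it was 3 to 6 in each. Over all genes, leaving out 1 library gave 5866 to 8319 calls in knockout and 6076 to 9743 in wildtype cells. The 3 in wildtype cells came without wildtype control replicate 2. Fits of the compared groups alone called 2 in knockout cells and 6 in wildtype cells. In that wildtype fit more genes of the whole set were also called than in the fit of all 12 libraries. Between genotypes 0 members were called with all libraries. With no filter on low counts 2 were called in control medium and 1 in bleomycin. The fit of the compared groups alone called 1 in bleomycin, and leaving out 1 library gave 0 to 1 in each medium. For the genotype comparisons, counts over all genes under these settings, which moved as well, are given below. For the IGF system list, leaving out 1 library gave 8 to 12 called in knockout, 9 to 14 in wildtype cells and 0 to 1 between genotypes in control medium.

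Some values changed sign between settings. In bleomycin, knockout over wildtype, IGFBP2 was -0.0102 and IGFBP6 -0.0173 with library totals only, and IGFBP6 was -0.00184 with no filter and -0.00286 with the replicate block. The interaction of IGFBP3 was 0.000259 with limma on log2(FPKM + 1). With 1 library left out, knockout over wildtype in bleomycin ran from -0.0499 to 0.11 for IGFBP2, from -0.0382 to 0.17 for IGFBP4 and from -0.10 to 0.10 for IGFBP6, and the IGFBP3 interaction from -0.21 to 0.29. The response in knockout cells ran from -0.48 to 0.0228 for IRS2 and from -0.30 to 0.98 for KAZALD1, the highest value of each being without knockout control replicate 2. For SLC25A4, bleomycin in wildtype cells ran from -0.00126 to 0.38. Its knockout value in control medium ran from -1.96 to -1.65, and did not pass in the fit of those groups alone (-1.79, adjusted p = 0.406).

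Counts over all genes moved most between genotypes: 28 in control medium became 321 with no filter, 209 with DESeq2, 14 with limma, 11 with the replicate block, 0 with those groups alone and 0 to 175 with 1 library left out. In bleomycin 8 became 81, 88, 28 (4 with a pseudocount of 0.1), 4, 312 and 2 to 294. In the interaction 0 became 13 with no filter, 4 with DESeq2 and 0 to 9 with 1 library left out. The causes of these changes were not tested. The sample labels do not say whether same-numbered libraries are paired. Deviations of same-numbered libraries from their group means correlated at -0.128 to 0.109, which cannot settle it. With the replicate block 5 members were called in knockout cells (IGFBP4 too, adjusted p = 0.0496) and 4 in wildtype cells (IGFBP6 not, adjusted p = 0.0511). In wildtype cells fewer genes of the whole set were also called with the block than without it. Depth limits IGFBP1, whose control libraries had 0 or 1 count.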
